A study of Homo sapiens with 12 samples.

Results

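The peaks that span a start codon mark RNA that was enriched over a control in pulldowns of a bacterial Cas9 protein. They include at least part of the codon at which human ribosomes begin translation. They were chosen by position alone: a peak was kept when it overlapped, on the same strand, at least 1 base of the 3-base start codon of the Ensembl canonical transcript of a protein-coding gene (GENCODE 44, hg38), whatever its enrichment. Of 18128 peaks in 4 deposited lists, 891 met this rule. They covered 518 different start codons, which was 14.8% of the 3499 canonical mRNAs with a peak anywhere.

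RNA bound by catalytically dead Streptococcus pyogenes Cas9 without a nuclear localization signal (dSpCas9) was measured by eCLIP, in which RNA is crosslinked to protein by UV light, immunoprecipitated (IP) and sequenced. HEK 293T cells, a human embryonic kidney cell line (Lenti-X 293T), were transfected with a plasmid for V5-dSpCas9, with a plasmid for 3xFLAG-dSpCas9 or with the empty vector, and all were exposed to UV. The 12 libraries formed 6 groups of 2 biological replicates: the V5 IP and the FLAG IP from the cells with the matching tagged protein, a size-matched input without IP from the same cells, and the V5 IP and the FLAG IP from empty vector cells. The methods name no guide RNA plasmid for these transfections, expression was transient and plasmid-driven, and complexes of 115 kDa and more were taken from the membrane.

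Each list held the reproducible peaks of 1 antibody over 1 control, with the 2 replicates already combined, so a peak had a single enrichment: the log2 of the geometric mean of IP over control, with a floor of 3. No spread between replicates could be computed and no test between lists was possible. Intervals given for shares are 95% Wilson intervals and cover counting error only, and peaks are not independent replicates. The read depth behind the lists is unknown. The lists of V5 over size-matched input and V5 over the empty vector IP rest on the same V5 IP libraries, and the FLAG lists share theirs in the same way. In what follows, the size-matched input is called input and the empty vector IP is called empty vector, so that the 4 lists are V5 over input, V5 over empty vector, FLAG over input and FLAG over empty vector.

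A human ribosome usually loads at the 5′ cap of an mRNA and its small subunit scans toward the first AUG in a favourable setting, the Kozak context, in which a purine 3 bases before the AUG and a G right after it matter most. The region around the start codon therefore holds the end of the 5′ untranslated region (5′ UTR), the AUG itself and the first codons of the coding sequence (CDS). In human genes it often lies in the first exon and is rich in G and C.

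The start codons with a peak in all 4 lists carried the comparison, because they passed both tags and both controls. Of the 12 with the highest mean enrichment over input, 11 are shown from 12 bases before the ATG, in capitals, to 15 bases after it, as DNA letters of the mRNA strand read from GRCh38.
USP48: ggggccaaggccATGgccccgcggctgcag
GRPEL2: caaattggaaacATGgccgtacggtcgctg
METTL9: ccgcggcccccgATGagactgctggcgggc
BICD2: ccctcggccaccATGtcggcgccgtcggag
WDR1: aagtgggcgaggATGccgtacgagatcaag
ATP5F1A: gtaactgcaaagATGctgtccgtgcgcgtt
NDUFB7: gcgactgcagccATGggggcccacctggtc
GAK: gcagccaccgccATGtcgctgctgcagtcg
POLE: gccaacggctccATGtctctgaggagcggc
TKT: gcctgccgcaccATGgagagctaccacaag
ATG12: tctccaagcaagATGgcggaggagccgcag
Windows within 1 exon were read on the plus strand for GRPEL2 (chr5:149345528-149345557) and METTL9 (chr16:21599722-21599751). Those on the minus strand were USP48 (chr1:21782940-21782969), BICD2 (chr9:92764727-92764756), ATP5F1A (chr18:46098214-46098243), NDUFB7 (chr19:14571983-14572012), GAK (chr4:932170-932199), POLE (chr12:132687298-132687327), TKT (chr3:53255925-53255954) and ATG12 (chr5:115841535-115841564). The window of WDR1 was spliced from chr4:10116651-10116678 and chr4:10116233-10116234 on the minus strand.

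V5 over input had 375 such peaks among 6605, or 5.68%, at 371 start codons. FLAG over input had 269 among 6554, or 4.10%, over 265 start codons. Over empty vector, V5 had 198 among 3005 (6.59%, over 197 start codons) and FLAG had 49 among 1964 (2.49%, over 49 start codons). The share of the list was therefore lowest in FLAG over empty vector, with an interval of 1.89% to 3.28%, and highest in V5 over empty vector, with an interval of 5.76% to 7.53%. For comparison, all lists together held 1058 peaks inside 5′ UTRs, 8665 inside the CDS, 479 over the stop codon and 6413 inside 3′ UTRs.

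Of the 518 start codons, 31 had a peak in all 4 lists and 290 in a single list. A peak in both input lists, which share no library, was present at 163 start codons, which was 43.9% of those of V5 and 61.5% of those of FLAG. Both empty vector lists had a peak at 32, which was 16.2% of those of V5 and 65.3% of those of FLAG. The V5 lists alone held 249 start codons and the FLAG lists alone 97. A common combination was both V5 lists with FLAG over input and no peak in FLAG over empty vector, at 65 start codons, whereas the mirror case, both FLAG lists with V5 over input and not V5 over empty vector, was found at 8. The lists differed in size, with 198 start codon peaks in V5 over empty vector and 49 in FLAG over empty vector. The part of list size in these counts was not tested. Shares of overlapping peaks are given below beside those over all peaks of each list.

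QPRT, which encodes the quinolinate phosphoribosyltransferase of NAD synthesis, had the highest log2 enrichment among the start codon peaks of 3 of the 4 lists. Its log2 enrichment was 6.0 in V5 over input, 4.96 in V5 over empty vector, 5.91 in FLAG over input and 5.57 in FLAG over empty vector. The peaks were short: 26 nt in both V5 lists and 25 nt in both FLAG lists, with 13 and 16 nt in the 5′ UTR. The V5 peaks ended on the last base of the exon that carries the start codon.

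USP48, a deubiquitinase, had log2 enrichments of 5.16 in V5 over input, 4.28 in V5 over empty vector, 5.90 in FLAG over input and 5.17 in FLAG over empty vector. Its V5 peaks (chr1:21782921-21783052, minus strand) reached 95 nt into the 5′ UTR, and its FLAG peaks (chr1:21782912-21782978) reached 21 nt. Both tags gave a peak over the ATG with different outer borders. In GRPEL2, a co-chaperone of mitochondrial protein import, the log2 enrichment in the same order of lists was 5.04, 3.99, 5.19 and 3.41. In METTL9, a protein histidine methyltransferase, it was 5.22, 4.81, 4.96 and 3.52. In both mRNAs FLAG over empty vector was the lowest of the 4 values.

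BICD2, an adaptor between cargo and the dynein motor, had log2 enrichments of 4.92, 4.62, 5.19 and 4.97 in the order V5 over input, V5 over empty vector, FLAG over input and FLAG over empty vector. POLE, the catalytic subunit of DNA polymerase epsilon, had 4.80, 5.15, 4.96 and 4.64 in that order. These 2 mRNAs had similar values in the 4 lists. WDR1, a cofactor in actin filament disassembly, had 4.80, 4.13, 5.27 and 4.02. TKT, the transketolase of the pentose phosphate pathway, had 4.59, 5.03, 5.06 and 4.04. The WDR1 peaks ended at or 1 nt past the end of the exon with the ATG, after 16 nt of CDS in each list.

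Of these 31 start codons, 3 belonged to mRNAs of the respiratory chain and ATP synthase. ATP5F1A, the alpha subunit of ATP synthase, had log2 enrichments of 5.30 and 4.55 in V5 (over input and over empty vector) and of 4.74 and 3.09 in FLAG. NDUFB7 of respiratory complex I had 4.94 and 4.53 in V5 and 5.10 and 3.24 in FLAG. NDUFA9, another complex I subunit, had 4.46 and 4.15 in V5 and 5.03 and 3.85 in FLAG, and its start codon is shared with a readthrough gene in the annotation, so the peak cannot be given to 1 of them. In these 3 mRNAs the FLAG enrichment over empty vector was the lowest of the 4. SLC25A11, the mitochondrial oxoglutarate carrier, showed the same order at its low end, with 4.88 and 4.99 in V5 and 4.35 and 3.03 in FLAG.

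GAK, a kinase of clathrin uncoating, had log2 enrichments of 4.42 and 4.39 in V5 and 5.36 and 3.64 in FLAG (over input and over empty vector). ATG12, a ubiquitin-like protein of autophagy, had 4.91 and 4.31 in V5 and 4.73 and 3.53 in FLAG. The iron-linked genes NCOA4, GLRX3, ISCA2 and SLC11A2 were also in all 4 lists. GLRX3, a glutaredoxin, differed between the tags: 3.87 and 3.18 in V5 and 5.58 and 3.19 in FLAG. SLC11A2, an iron importer, had 4.97 and 4.31 in V5 and 3.96 and 4.02 in FLAG. NCOA4, the receptor for ferritin turnover, had 4.76 and 4.20 in V5 and 4.62 and 4.05 in FLAG, and ISCA2, of iron-sulfur cluster assembly, had 4.42 and 3.24 in V5 and 4.63 and 3.12 in FLAG. This grouping was made after the values were seen and was not tested. CPSF1, of mRNA 3′ end processing, had 4.95 and 4.85 in V5 and 4.14 and 3.87 in FLAG, whereas GOT1, the cytosolic aspartate aminotransferase, had closer values of 4.22 and 4.33 in V5 and 4.27 and 3.78 in FLAG. C12orf76 had 4.66 and 4.30 in V5 and 4.88 and 3.11 in FLAG.

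Enrichment over empty vector was below that over input in 21 of the 31 start codons for V5 and in 27 of 31 for FLAG. The medians over these 31 were 4.63 and 4.31 for V5 and 4.74 and 3.70 for FLAG. DPF2, a subunit of the BAF chromatin remodelling complex, went the other way in FLAG, with a log2 enrichment of 4.37 over input and 5.31 over empty vector, and with 4.28 and 3.76 in V5. CHMP5, which works with the ESCRT-III membrane complex, had 3.86 over input and 4.98 over empty vector in V5 and 5.03 and 5.05 in FLAG. The plot of these values by mRNA shows DPF2 as the start codon in which FLAG over empty vector stood highest above the other 3 values.

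**Figure D1:**
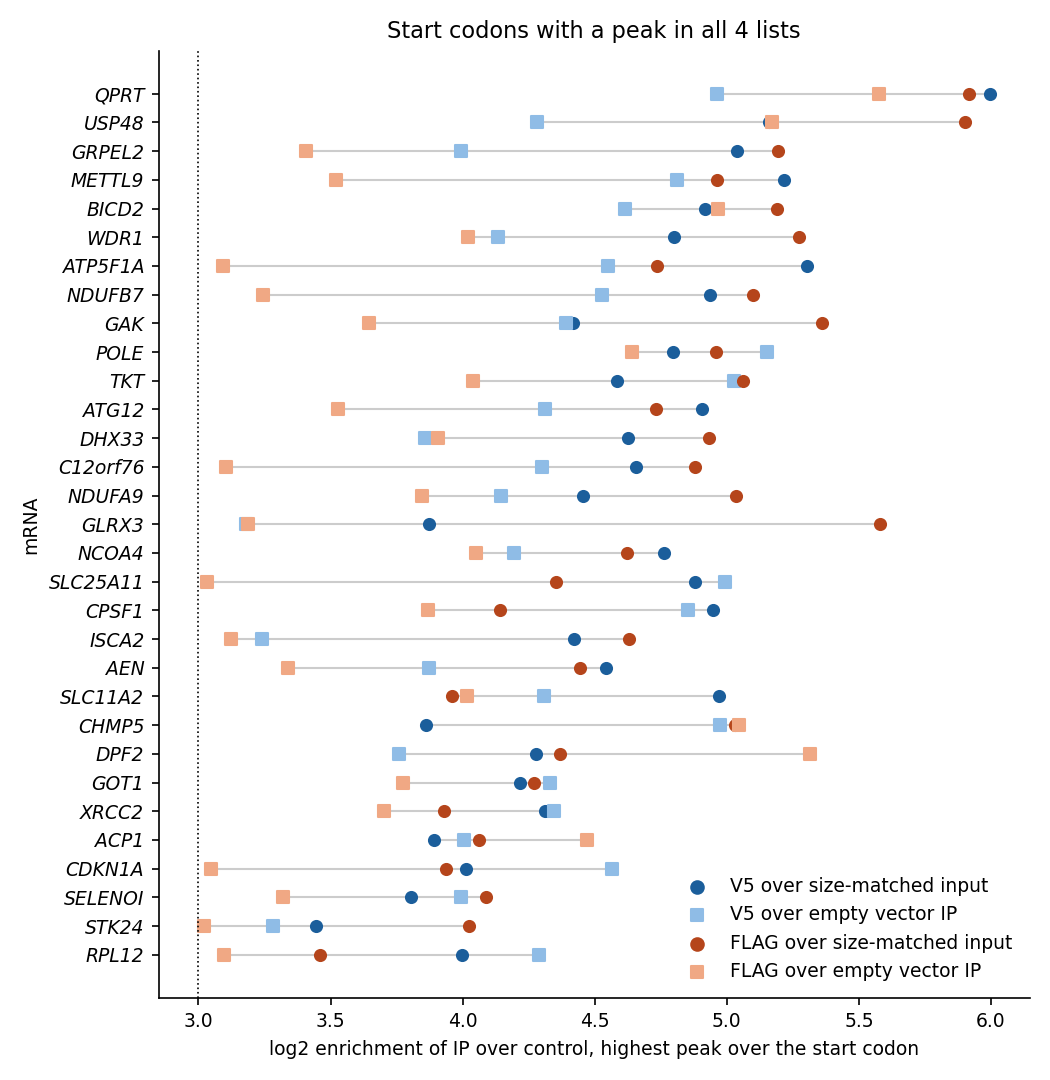
Log2 enrichment (x axis, IP over control) at the 31 start codons with a peak in all 4 lists (y axis, ordered by the mean of both input values); a point is the highest peak over that start codon, circles are over input, squares over empty vector, and the dotted line is the floor of 3. QPRT sits between 4.96 and 6.0, and the FLAG square is the lowest point for most mRNAs, with DPF2 at 5.31 as an exception.

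Some strong start codon peaks were not in all 4 lists, although the 5 highest in FLAG over empty vector all were. RPL22L1, a ribosomal protein paralogue, had log2 enrichments of 5.64 in V5 over input, 4.07 in V5 over empty vector and 3.20 in FLAG over input. Its peaks were 11 to 15 nt long, and its ribosomal family has pseudogenes, so the assignment of the reads is uncertain. COX18, a factor of cytochrome oxidase assembly, had 3.70 in V5 over input and 5.22 in V5 over empty vector, and no FLAG peak over the start codon. HERC5, an ISG15 ligase, had 5.85 and 3.43 in FLAG (over input and over empty vector) and 4.73 in V5 over input, with −log10 p between 6.85 and 13.7. The histone gene H2AC11 had 5.80 and 4.27 in FLAG and no V5 peak over the start codon; it belongs to a family of near-identical genes, so the gene of origin is uncertain.

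At the 163 start codons with a peak in both input lists, the V5 and FLAG enrichments had a Pearson r of 0.570 and a Spearman rho of 0.512. The points are start codons that share the floor of 3, and each axis rests on the libraries of 1 tag, so the correlation is a description. The medians were 3.86 for V5 and 3.79 for FLAG, FLAG was the higher at 86 of the 163, and the median absolute difference was 0.37. Enrichment was lower where 1 tag alone had a peak: the median was 3.42 at the 208 start codons of V5 without a FLAG peak over input and 3.35 at the 102 of FLAG without a V5 peak. GLRX3 and SLC39A7, a zinc transporter with 3.32 in V5 and 5.05 in FLAG, lay far on the FLAG side, and RPL22L1 far on the V5 side.

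**Figure D2:**
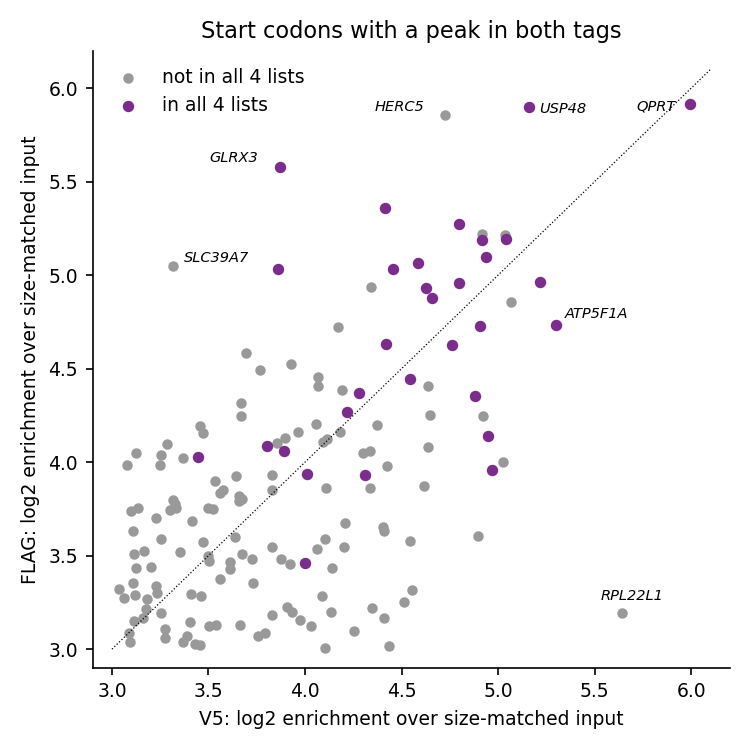
Log2 enrichment over input in V5 (x axis) and FLAG (y axis) at the 163 start codons with a peak in both lists; purple points are the 31 with a peak in all 4 lists and the dotted line marks equal values. The points scatter around the line with r of 0.570, QPRT lies at the top right near 6.0 and 5.91, and RPL22L1 lies at 5.64 and 3.20.

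The enrichment of start codon peaks was close to that of the rest. The median log2 enrichment was 3.56 for start codon peaks and 3.61 for all other peaks in V5 over input, 3.60 and 3.61 in V5 over empty vector, 3.55 and 3.63 in FLAG over input, and 3.78 and 3.58 in FLAG over empty vector. The quartiles overlapped widely, from 3.25 to 4.02 for the start codon peaks of V5 over input against 3.29 to 4.07 for the others. A log2 enrichment of at least 5 was reached by 11 start codon peaks in V5 over input (2.93%, against 4.57% of the others) and by 18 in FLAG over input (6.69%, against 5.76%). Over empty vector it was reached by 3 in V5 (1.52%, against 4.49%) and by 4 in FLAG (8.16%, against 4.02%). The highest values of the lists lay elsewhere, up to 8.56 in V5 and 9.52 in FLAG over input, against 6.0 and 5.91 at start codons.

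Start codon peaks were longer than the rest, which the rule in part favours, since a longer peak is more likely to reach a given codon. Their median length was 103 nt against 72 nt in V5 over input, 107.5 against 71 nt in V5 over empty vector, 105 against 70 nt in FLAG over input, and 87 against 74 nt in FLAG over empty vector. Peaks over the stop codon, which are chosen in the same way, had medians of 98 nt in V5 and 94.5 nt in FLAG over input. The GC content of start codon peaks was higher than that of the others: 70.0% against 60.0% in V5 over input and 69.2% against 58.5% in FLAG over input. Peaks inside 5′ UTRs were higher still, with medians of 72.6% and 72.8%, and stop codon peaks lower, with 61.1% and 59.4%. In FLAG over empty vector the start codon peaks had a median GC content of 61.7%, against 56.0% for the others.

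The peaks usually reached further into the CDS than into the 5′ UTR. Reach into the 5′ UTR was limited by its length. At the start codons with a peak, that length had a median of 98 nt and a lower quartile of 46 nt. The bases of the start codon itself were counted on the CDS side. The part of 5′ UTR length and of these bases in the difference was not tested. In V5 over input the median peak covered 33 nt of 5′ UTR and 50 nt from the start codon on, and in FLAG over input 34 and 50 nt. Over empty vector the medians were 36.5 and 57.5 nt in V5 and 23 and 49 nt in FLAG. The midpoint fell in the CDS in 59.5%, 60.6%, 56.9% and 67.3% of start codon peaks in V5 over input, V5 over empty vector, FLAG over input and FLAG over empty vector. The longest reach into the 5′ UTR was 254 nt, in AGFG1 in V5 over input, a peak that touched the start codon with 1 base.

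**Figure D3:**
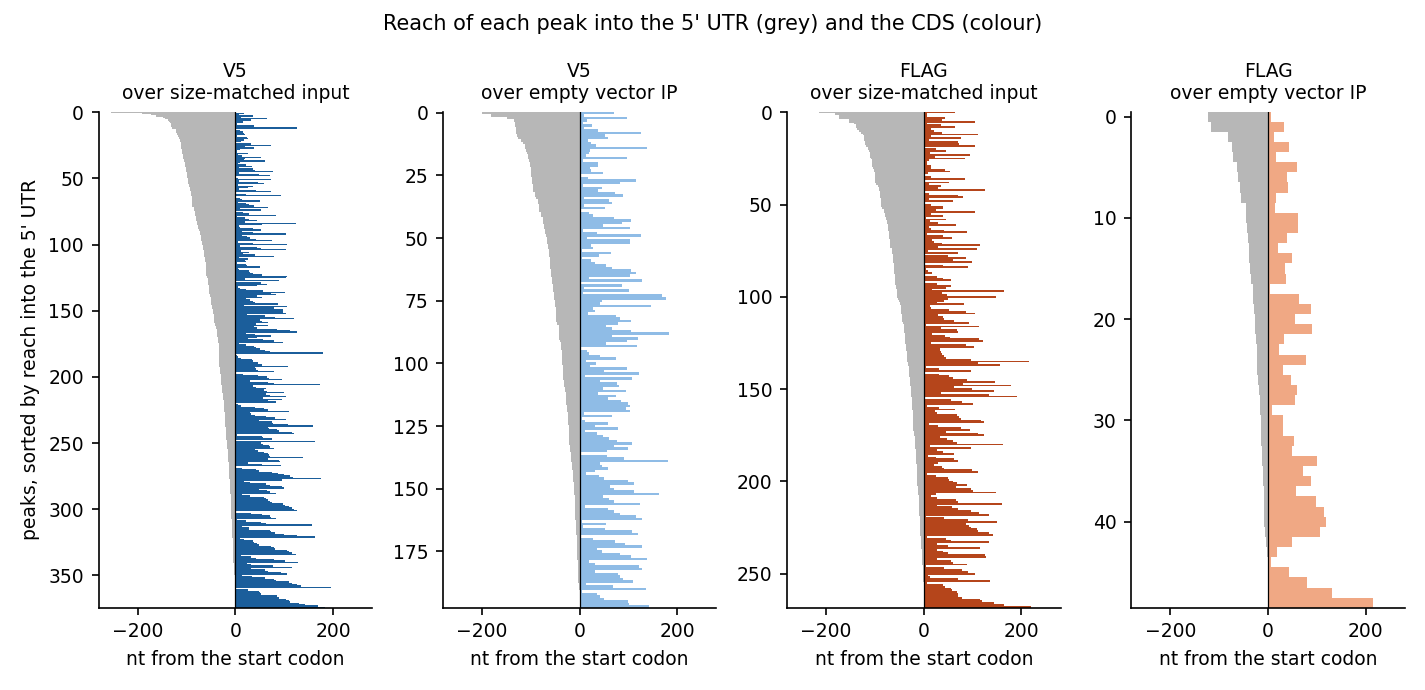
Each horizontal bar is 1 peak (y axis, sorted), drawn from the number of nt it covers in the 5′ UTR (grey, left of 0) to the number it covers from the start codon on (colour, right of 0), with a panel per list. The bars lie on both sides of the start codon in every panel, with medians of 33 and 50 nt in V5 over input and 23 and 49 nt in FLAG over empty vector.

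All 3 bases of the start codon lay inside the peak in 351 of 375, 194 of 198, 254 of 269 and 48 of 49 peaks, in the same order of lists. The peaks that held only part of the codon, just inside the rule, had median log2 enrichments of 3.58 (24 peaks), 3.58 (4 peaks), 3.76 (15 peaks) and 3.10 (1 peak). The peaks that ended within 10 nt of a start codon without touching it, just outside, had medians of 3.57 (63), 3.64 (45), 3.63 (61) and 3.54 (12). In V5 and FLAG over input, 48 and 41 start codon peaks ran past the annotated 5′ end of the canonical mRNA, by up to 72 nt in V5. CHMP5 was among them, by 19 to 23 nt. Intron bases were included in 35 and 28 peaks of the same lists, but only a single base in 26 and 17 of these.

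Along the mRNAs with a peak, peak coverage was higher around the start codon than deeper in the CDS. In V5 over input, 13.9% of 2628 mRNAs were covered at the first base of the start codon, 10.5% of those that reach so far at 100 nt beyond it and 5.94% at 300 nt. In FLAG over input the shares were 10.2% of 2549 mRNAs, 8.63% and 5.10%. The highest coverage in this window lay 54 nt before the start codon in V5 (14.4%) and 58 nt before it in FLAG (11.8%), so the start codon itself was not a summit. Over empty vector the highest coverage lay after the start codon, at 46 nt in V5 (16.1%, against 15.1% at the start codon) and at 31 nt in FLAG (5.79%, against 4.96%). The profile is not adjusted for RNA abundance along the mRNA, and the mRNA sets differ between lists.

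**Figure D4:**
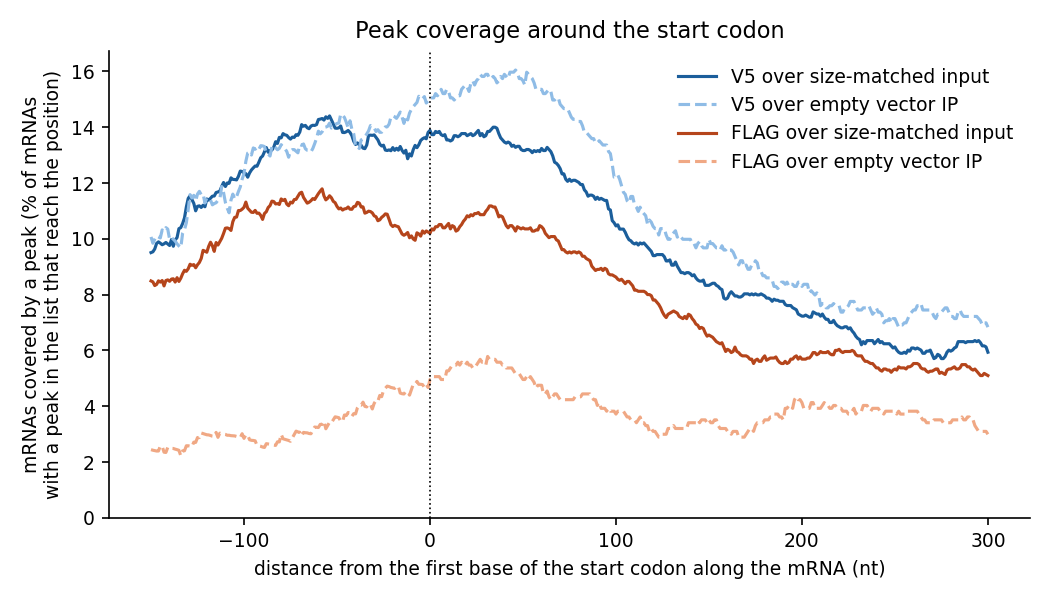
Share of mRNAs covered by a peak (y axis, percent of mRNAs with a peak in the list that reach the position) by distance from the first base of the start codon along the spliced canonical mRNA (x axis, nt), with a line per list. Coverage is 13.9%, 15.1%, 10.2% and 4.96% at the start codon in V5 over input, V5 over empty vector, FLAG over input and FLAG over empty vector, and falls to 5.94%, 6.84%, 5.10% and 3.00% at 300 nt.

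The start codon peak was the highest peak of its gene in 53.1% of 371 start codons in V5 over input, 60.9% of 197 in V5 over empty vector, 57.4% of 265 in FLAG over input and 51.0% of 49 in FLAG over empty vector. It was the only peak of the gene, and so the highest by definition, in 134, 86, 96 and 15 of these. Several peaks were present in the genes of 237, 111, 169 and 34 start codons, in the same order of lists. Among these the start codon peak was the highest in 26.6%, 30.6%, 33.1% and 29.4%. The same shares were not computed for peaks elsewhere, so they cannot be called particular to start codons.

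The tags differed in how many start codon peaks over input also overlapped, by at least 1 nt, a peak over empty vector. In V5 it was 157 of 375, or 41.9% (37.0% to 46.9%), where 36.0% of all peaks of the list did. In FLAG it was 49 of 269, or 18.2% (14.1% to 23.3%), where 27.9% of all peaks of the list did. Peaks inside 5′ UTRs had similar shares, 39.7% in V5 and 15.2% in FLAG, whereas in FLAG the share was 26.6% (25.0% to 28.2%) for CDS peaks, 31.3% for stop codon peaks and 32.7% (30.8% to 34.6%) for 3′ UTR peaks. The interval of FLAG start codon peaks lay below those of FLAG CDS and 3′ UTR peaks and overlapped that of 5′ UTR peaks.

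**Figure D5:**
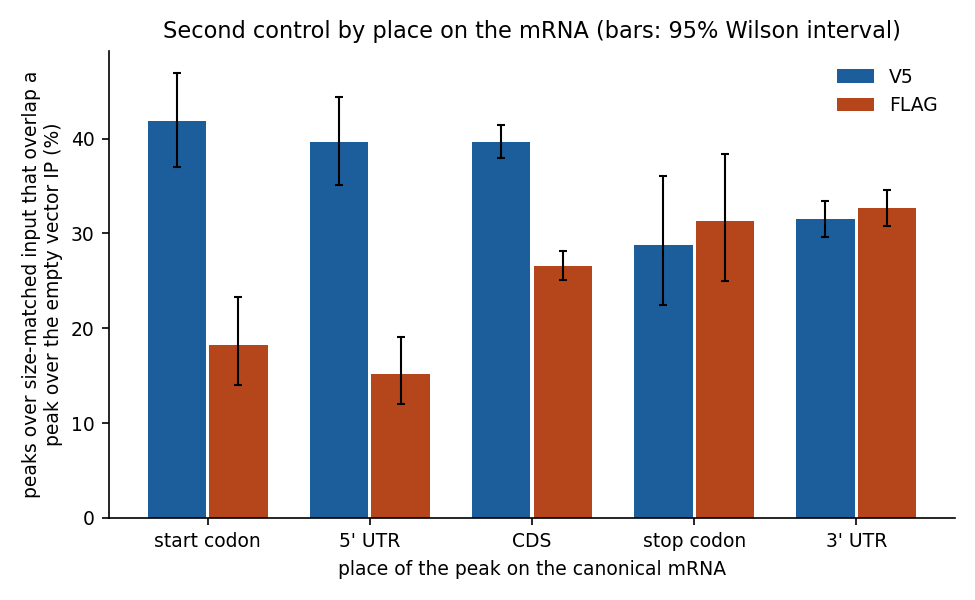
Percent of peaks over input that overlap a peak over empty vector of the same antibody (y axis) by place on the canonical mRNA (x axis); bars are V5 and FLAG and error bars are 95% Wilson intervals, which cover counting error only. At start codons V5 stands at 41.9% and FLAG at 18.2%, and at 3′ UTRs V5 stands at 31.5% and FLAG at 32.7%.

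GC content moved with this share in FLAG. Among FLAG start codon peaks the share was 41.7% of 48 below 60% GC, 15.5% of 97 from 60% to 70% and 11.3% of 124 from 70% up, and among the other FLAG peaks it was 33.8%, 23.4% and 16.7% in the same classes. In V5 start codon peaks it was 56.5%, 43.4% and 37.3%, and in the other V5 peaks 35.7%, 35.2% and 36.7%. The FLAG start codon peaks with a partner over empty vector had a median GC content of 62.0% and a median log2 enrichment of 4.62 over input, and those without had 69.9% and 3.46. In V5 the corresponding medians were 69.2% and 3.83 with a partner and 71.4% and 3.42 without. The part of GC content, length and enrichment in the difference between the tags was not tested.

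Identical borders in both lists of an antibody were found for 92 of the 375 V5 and 25 of the 269 FLAG start codon peaks over input. The same share was not computed over all peaks, so these counts cannot be called particular to start codons. Overlap with the other tag over input was 52.3% for V5 start codon peaks, where 54.0% of all peaks of the list overlapped, and 68.4% for FLAG, where 55.8% of all did. For FLAG over empty vector, 71.4% of 49 start codon peaks overlapped a V5 peak over empty vector, where 50.4% of all did, and for V5 over empty vector 21.7% of 198 overlapped a FLAG one, where 30.6% of all did. In the other direction of control, 152 of the 198 start codon peaks of V5 over empty vector overlapped a peak of V5 over input (76.8%, where 76.6% of all did), and 46 of the 49 of FLAG over empty vector overlapped one of FLAG over input (93.9%, where 90.5% of all did). An overlap with a peak in each of the other 3 lists was found for 10.9% of start codon peaks in V5 over input (13.4% of all), 21.2% in V5 over empty vector (28.7% of all), 13.4% in FLAG over input (14.2% of all) and 69.4% in FLAG over empty vector (46.6% of all).

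The start codons under peaks had features that the rule did not use. Of 518, 464 (89.6%; 86.6% to 91.9%) had a purine at position −3, against 87.7% (86.4% to 88.8%) of the 2970 start codons of mRNAs with a peak only elsewhere and 84.3% of 19401 canonical start codons. These sets leave out transcripts whose annotated CDS start is incomplete, 11 of them with a peak. A G at +4 was present in 56.0%, 55.3% and 51.4% of these sets. The Kozak bases thus differed little from other mRNAs with a peak. In the sequences above, USP48, GRPEL2, NDUFB7, TKT and ATG12 have both a purine at −3 and a G at +4, and METTL9 and POLE have neither.

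The setting of the start codon differed more. It lay in the first exon in 86.5% (83.3% to 89.2%) of the 518, against 61.4% (59.7% to 63.2%) of mRNAs with a peak only elsewhere. The 5′ UTR had a median of 98 nt against 150 nt, and an upstream ATG was present in it in 25.1% (21.6% to 29.0%) against 42.4% (40.6% to 44.2%). GC content within 50 nt of the start codon had a median of 68.9% against 65.0%. The mean predicted pairing probability of the AUG was alike, with medians of 0.435 and 0.428, and that within 15 nt on either side was 0.583 against 0.541. The median CDS was 1225.5 nt against 1521 nt. The length of the 5′ UTR moved with the share of upstream ATGs, and its part in that difference was not tested.

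The canonical start codon was CTG rather than ATG in 4 of the 518: GTF3A, a factor for 5S rRNA transcription, DDX17, an RNA helicase, PIGX, of GPI anchor synthesis, and BAG1, a co-chaperone. Log2 enrichments over input in V5 and FLAG were 3.09 and 3.09 in GTF3A, 3.87 and 3.48 in PIGX and 3.56 and 3.83 in BAG1. DDX17 had 3.59 in V5 over input and 3.42 in V5 over empty vector, with no FLAG peak over the codon. Over all start codon peaks the median was 3.56 in V5 over input, 3.55 in FLAG over input and 3.60 in V5 over empty vector. The values of the CTG codons lay on both sides of these medians.

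The GU-loop:5nt-stem is the study's structural model of a Cas9-bound site, taken from the guide RNA: a GU whose U is predicted to be paired with a probability under 0.7, followed by 5 bases each paired with a probability over 0.5 (ViennaRNA's local folding, with 50 nt of flanking genomic sequence). At least 1 was present in 52.5% of start codon peaks in V5 over input, where 41.3% of all peaks of the list had one, in 58.6% in V5 over empty vector (39.4% of all), in 53.9% in FLAG over input (39.3% of all) and in 49.0% in FLAG over empty vector (39.9% of all). The share rose with peak length in both sets. From 100 to 149 nt it was present in 67.6% (59.6% to 74.7%) of 145 start codon peaks and 60.8% (58.0% to 63.5%) of 1181 others in V5 over input, and from 50 to 99 nt in 38.7% of 142 and 45.3% of 2910. In FLAG over input it was present in 64.1% of 92 and 59.8% of 1184 from 100 to 149 nt and in 45.1% of 91 and 43.2% of 2806 from 50 to 99 nt. The start codon peaks were above the others in most length classes, with overlapping intervals in each class of the 4 lists. They were below the others only from 50 to 99 nt in V5 over input and from 150 nt up in FLAG over empty vector. The latter class held 1 start codon peak.

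The predicted site nearest to the ATG is shown for 4 start codons, as 27 bases on the mRNA strand with the GU and its 5 stem bases in capitals.
USP48: ctcgggaggcGTTCCTGgggccaaggc
BICD2: cggccaccatGTCGGCGccgtcggagg
ATP5F1A: gatgctgtccGTGCGCGttgctgcggc
GRPEL2: tggccgtacgGTCGCTGtgggcgggcc
In USP48 (chr1:21782959-21782985, minus strand) the G lay 18 nt before the first base of the ATG. In BICD2 (chr9:92764726-92764752, minus strand) it was the G of the ATG itself, 2 nt after its first base. In ATP5F1A (chr18:46098206-46098232, minus strand) it lay 9 nt after the first base, and in GRPEL2 (chr5:149345541-149345567, plus strand) 11 nt after it. ATP5F1A had further sites 15 and 27 nt after the first base and GRPEL2 17 and 36 nt after it, in the peaks of all 4 lists, and BICD2 had another at 59 nt in FLAG over input. QPRT, with the highest enrichment, had no such site within its short peaks, and it was not alone in this. At the 31 start codons in all 4 lists, 15 of 31 peaks in V5 over input held a site. It was 19 of 32 in V5 over empty vector. In FLAG it was 17 of 32 over input and 18 of 31 over empty vector. Over all start codon peaks the shares were 52.5% and 58.6% in V5 and 53.9% and 49.0% in FLAG. The peaks at the 31 had median lengths of 79 to 85 nt, and length was not matched here. In the start codon peaks of V5 over input the median log2 enrichment was 3.58 with the motif and 3.55 without, and in those of FLAG over input it was 3.53 with and 3.64 without.

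By function, the mRNAs of the mitochondrial ribosome and respiratory chain had the highest share of the 13 gene groups examined: 20 of the 46 with a peak anywhere had one over the start codon (43.5%), where 14.8% of all mRNAs with a peak did. Of these 20, 19 were in V5 and 10 in FLAG over input, where 371 and 265 of all 518 start codons were. Besides ATP5F1A, NDUFB7 and NDUFA9, ATP5F1B of the ATP synthase had log2 enrichments of 4.90 in V5 over input, 4.04 in V5 over empty vector and 3.60 in FLAG over input. Among mitochondrial ribosomal members, MRPL12 had 4.10, 3.55 and 3.59 in the same lists, and MRPS7 had 3.25 in V5 and 4.04 in FLAG over input. The 19 values in V5 over input ran from 3.03 in MRPL15 to 5.30 in ATP5F1A, with low values in respiratory chain members too, such as SDHA of complex II at 3.25. The groups were chosen with earlier results of these data known and the shares were not tested.

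Heat shock proteins and chaperones had 14 of 36 (38.9%). None of the 14 was in FLAG over empty vector, a list that held only 49 of all 518 start codons. HSPA4, a chaperone of the HSP110 type, had 3.83 in V5 over input, 3.18 in V5 over empty vector and 3.55 in FLAG over input, and the HSP70-binding BAG4 had 4.28 in FLAG over input alone. BAG4 had the highest value of the 14 in any list, and HSPBP1, with 3.04 in FLAG over input alone, was among the lowest. Cytoplasmic ribosomal proteins had 13 of 52 (25.0%), with 11 in V5 and 6 in FLAG over input, where 371 and 265 of all 518 were. RPS28 had 4.18 in V5 over input, 4.87 in V5 over empty vector and 4.16 in FLAG over input, and RPL12, the ribosomal protein in all 4 lists, had 4.00 and 4.29 in V5 and 3.46 and 3.10 in FLAG. The FLAG value of RPL12 came from a peak of 6 nt. Ribosomal protein genes have many pseudogene copies, so reads of these mRNAs may be split among them.

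Among 18 p53 target genes with a peak, 7 (38.9%) had one over the start codon; some of these genes were picked by the study from these data, so the group is no independent sample. AEN, a p53-induced nuclease, had log2 enrichments of 4.54 and 3.87 in V5 and 4.44 and 3.34 in FLAG (over input and over empty vector), and its peaks reached 29 to 32 nt into the 5′ UTR. CDKN1A, the cell cycle inhibitor p21, had 4.01 and 4.57 in V5 and 3.94 and 3.05 in FLAG. Its V5 peaks (chr6:36684097-36684183, plus strand) covered 5 nt of 5′ UTR and 82 nt from the start codon on, and its FLAG peaks (chr6:36684102-36684180) began at the first base of the ATG. PMAIP1, a pro-apoptotic BH3 protein, had 4.40 and 4.43 in V5 and 3.65 in FLAG over input, and MDM2, a ubiquitin ligase, had 3.92 and 3.96 in V5 and 3.46 in FLAG over input. CDIP1, ATF3, ACTB and GAPDH had no peak over the start codon in any list.

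Proteasome and ubiquitin enzymes had 11 of 54 (20.4%), led by USP48, with the proteasome subunit PSMA2 at 4.07 and 4.05 in V5 and 4.46 in FLAG over input. These 11 were proteasome and USP genes only, and ubiquitin ligases with a start codon peak, such as MDM2, were not counted among them. Splicing factors and helicases had 10 of 44 (22.7%), among them DHX33 with 4.63 and 3.86 in V5 and 4.93 and 3.91 in FLAG, and SNRPD1, a core protein of spliceosomal particles, with 4.76 and 4.45 in V5 alone. Solute carriers had 9 of 65 (13.8%), close to the 14.8% over all mRNAs with a peak. Histone genes had 4 of 35 (11.4%) and ZNF zinc finger genes 5 of 60 (8.33%). The translation factor list had 2 of 32 (6.25%), EIF3D, a subunit of an initiation factor, with 3.21 in V5 over empty vector, and EIF4EBP1, a repressor that binds an initiation factor, with 3.08 and 3.07 in V5. The aminoacyl-tRNA synthetases had 1 of 16, EPRS1, with 3.59 in V5 over empty vector. Tubulin and kinesin genes had 2 of 10, KIF5B and the gamma-tubulin complex gene TUBGCP4, which is no tubulin. Of 9 mRNAs known for control by upstream reading frames, 3 had a start codon peak: MDM2, SLC35A4 and EPRS1.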

How the data were processed

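The 12 eCLIP libraries of HEK 293T cells were grouped by their GEO titles. The authors' pipeline aligned reads to hg38 and kept peaks reproducible between 2 replicates; the submitters' processing notes name cutadapt 1.14, UMI-tools 1.0.0, STAR 2.4.0i and SAMtools 1.6. The 4 deposited BED lists give, per peak, −log10 p (highest value 400) and log2 enrichment over the control; the lowest deposited log2 and −log10 p values were just over 3. No column of samples was left unused (0). Only values per peak, not per replicate, were analysed here, so the depth is unknown and p-values between groups could not be computed.

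Peaks were joined to GENCODE 44 canonical transcripts by strand with Python 3.11.15 (numpy 2.4.6, pandas 2.3.3, scipy 1.17.1), and sequences were read from GRCh38. Local pairing was predicted with ViennaRNA 2.7.2 (window 70, flanks of 50 nt). Overlap meant at least 1 nt. Scripts were tested on simulated data. The genes named were those with a start codon peak in all 4 lists (the 25 with the highest mean over size-matched input), the top 5 of each list, up to 4 per gene group, those the study named, and non-ATG start codons; iron-linked genes, SLC39A7 and AGFG1 were named after their values were seen. The values of 1 gene and the sequence at 1 start codon are not reported here. The members, gene groups and tests were chosen with earlier results of these data known. Alternatives covered the overlap, transcript set, thresholds, merging of touching peaks, motif limits and comparison set.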

Additional observations from a re-analysis of the deposited data

How the results depend on the processing

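Of 49 alternatives over 19 results, 32 stayed within the limits set for no change and 17 moved; none reversed. A log2 enrichment of at least 4 left 97, 54, 77 and 17 start codon peaks in V5 over size-matched input, V5 over the empty vector IP, FLAG over size-matched input and FLAG over the empty vector IP, 42 start codons in both size-matched input lists and 7 in all 4. A −log10 p of at least 10 left 200, 55, 158 and 30 peaks, 106 start codons and 18. These fell because fewer peaks enter. With the U paired under 0.5 and the stem over 0.7, the GU-loop:5nt-stem was present in 15.2%, 15.7%, 15.2% and 18.4% of start codon peaks, and in 9.75%, 9.52%, 8.97% and 9.32% of all peaks of the same lists. These stricter shares were not split by peak length, and start codon peaks were the longer ones. The excess of purines at −3, 5.31 percentage points over all canonical start codons, was 1.62 over those of mRNAs with a peak anywhere. Counting start codons of any basic protein-coding transcript gave 437, 225, 312 and 58 peaks. No paired analysis was possible because the lists hold 1 value per peak over both replicates, and no replicate could be left out for the same reason. Read depth was not given in the lists, so a missing peak may be below the floor.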
